A study of Mus musculus with 12 samples.

Results

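A set of 7 genes from the pathway that carries the LIF signal in mouse embryonic stem cells (ESCs) were followed through loss of the Meteor enhancer and through early differentiation. They were chosen by name and by no rule on measured values, though with earlier results of these data known. They are the receptor chains Lifr and Il6st, the kinase Jak1, the transcription factor Stat3, and the STAT3 target genes Socs3, Pim1 and Pim3. All 7 were among the 46517 genes counted, and all 7 were among the 15673 genes tested.

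LIF is a cytokine added to ESC medium to keep the cells undifferentiated. It binds the chain encoded by Lifr, which pairs with gp130, the signalling chain encoded by Il6st. JAK kinases bound to these chains, above all JAK1, phosphorylate STAT3, which moves to the nucleus and binds DNA. STAT3 raises transcription of pluripotency factors such as Klf4 and Tfcp2l1 and of Socs3, whose product binds gp130 and JAKs and shuts the signal down, so the mRNA of Socs3 is often read as a trace of recent STAT3 activity. mRNA levels do not measure the phosphorylation of JAK1 or STAT3.

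The RNA-Seq data covered WT and Meteor KO cells at day 0 and at day 3, with 3 libraries in each of the 4 groups and 12 in all. WT cells were the parental Eomes-EGFP reporter ESC line, labelled as C57BL/6, and Meteor KO cells were made from it with the CRISPR-Cas9 nickase, which deleted the Meteor enhancer together with the start of its long noncoding RNA. Both carried the reporter. Day 0 samples were ESCs on mouse embryonic fibroblast feeders in LIF medium. Day 3 samples were embryoid bodies, cell aggregates grown in hanging drops of IMDM with serum, ascorbic acid and thioglycerol, a medium for which no LIF is listed, so day and medium cannot be told apart. KO clones were picked singly, and how many were sequenced is not given in the labels. The labels do not say that replicates came from separate cultures, so p-values measure the spread between these samples, which may be technical.

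Between 17455927 and 23910943 reads per library were counted on genes, so that 1 CPM (the read count scaled to a common library size, with TMM factors) stood for 17.6 to 24.0 reads. In the KO libraries, 2610509F24Rik, annotated at the deleted locus, had no counts, against 1.35 to 5.84 CPM in WT. The KO libraries also nearly lacked Upf3b, a nonsense-mediated decay factor outside the locus, at 0 to 0.661 CPM against 45.5 to 55.9 CPM in WT. In all comparisons of KO with WT, the deletion and this lack of Upf3b cannot be told apart. The summed level of 5 ESC markers was 2366 to 2738 CPM in WT and 3127 to 3362 CPM in KO at day 0, and 584.5 to 1110 CPM and 1089 to 1183 CPM at day 3. The summed level of 6 mesendoderm markers at day 3 was 691 to 1448 CPM in WT and 76.1 to 152 CPM in KO. WT day 3 replicate 3 stood apart from the other WT day 3 libraries, with the lowest ESC and mesendoderm sums. Its blood and endothelium marker sum was 294 CPM against 34.4 and 38.2 CPM. Most of that sum was Kdr, at 258 CPM, which the study lists among mesendoderm genes. The sum alone therefore does not show blood or endothelial cells. The other markers in it were at most 23.9 CPM in WT at day 3. The extraembryonic and visceral endoderm marker sum of this library was 119 CPM against 20.15 and 24.55 CPM. Results that rest on this library are given without it below.

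Per kilobase of annotated exon, the 3 target genes and Stat3 were the most abundant of the set in WT ESCs. Mean levels there were 48.8 CPM per kb for Pim3, 38.6 for Socs3, 28.8 for Pim1 and 22.6 for Stat3, followed by 15.0 for Il6st, 12.3 for Lifr and 10.8 for Jak1. Of these neighbours in rank, only Stat3 and Il6st had libraries that did not overlap. Pim3 was first in all 4 groups, and at day 3 Socs3 and Stat3 had lower places than at day 0. Socs3 was last in both genotypes, at 2.98 CPM per kb in WT and 1.29 in KO, while Jak1 had moved to the second place in WT, at 11.8, and to the third in KO, at 9.02. All neighbours in the WT day 3 order overlapped, whereas in KO at day 3 only Stat3, at 3.32 CPM per kb, and Lifr, at 2.43, did. The length covers the exons of all annotated transcripts of a gene, and the order depends on it. In plain CPM, Stat3, Il6st and Lifr led in WT ESCs, at 215, 166 and 133 CPM, before Pim3 at 118 CPM.

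**Figure D1:**
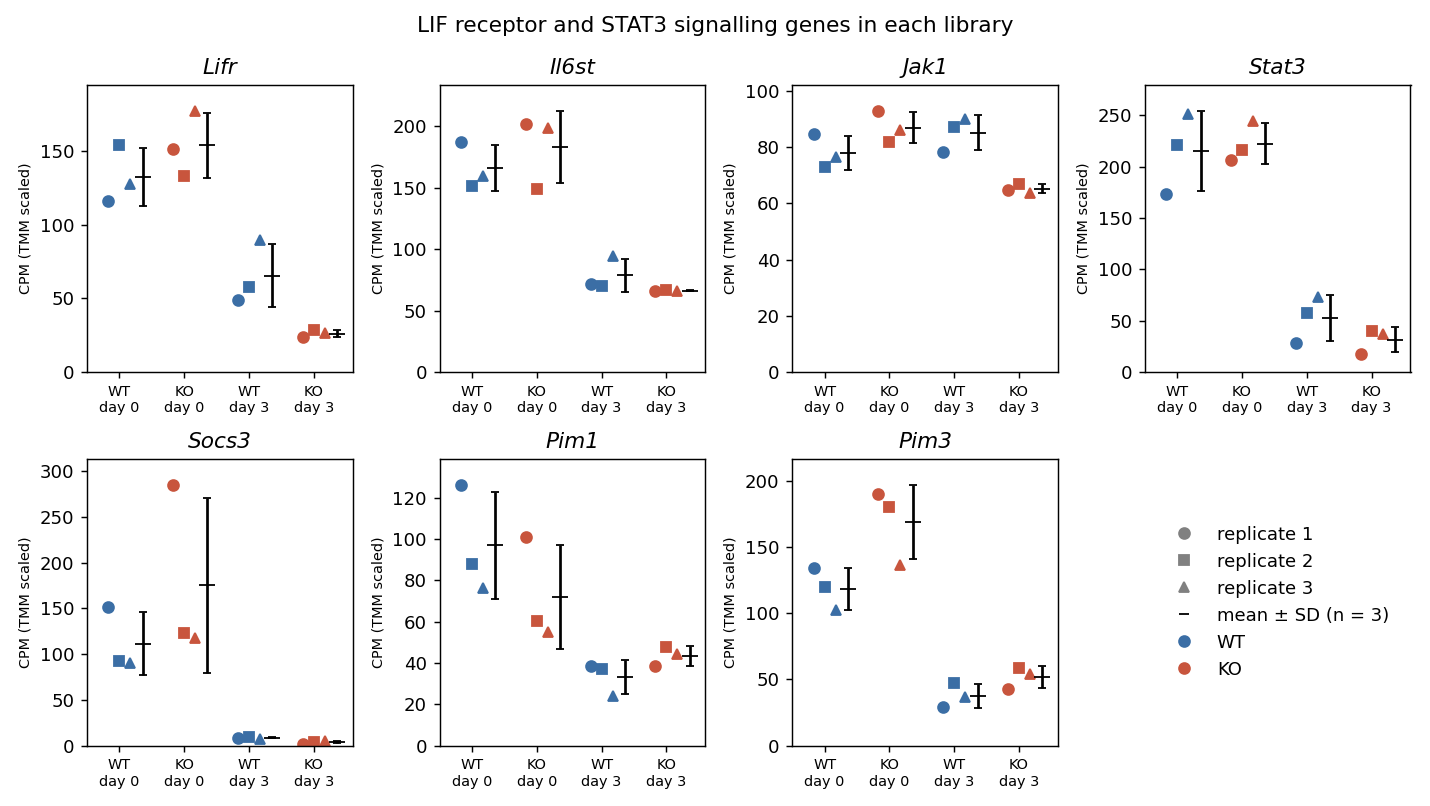
Level of each of the 7 genes in each of the 12 libraries, as CPM after TMM scaling on a linear axis from 0, with WT in blue, KO in red, a symbol for each replicate number and the mean ± SD of 3 replicates beside each group. Jak1 stayed between 63.7 and 92.8 CPM in all libraries, whereas Socs3 ranged from 2.45 to 285 CPM.

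Most of these genes fell during differentiation in both genotypes. In WT, 6 of 7 fell from day 0 to day 3 and none rose, against 25.5% of all tested genes that fell and 30.7% that rose. In KO, 7 of 7 fell, against 27.2% of all tested genes that fell and 29.4% that rose. Libraries of the days did not overlap, with day 3 lower, for 6 genes in WT and 7 in KO, against 25.9% and 30.1% of all tested genes. The median log2 fold change of the 7 genes was -1.54 in WT and -1.70 in KO, beside 0.07 and 0.03 over all tested genes. All adjusted p-values here come from the quasi-likelihood test of edgeR, adjusted by the method of Benjamini and Hochberg over the 15673 tested genes with n = 3 per group, and a gene is said to have risen or fallen where that value was below 0.05.

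Between KO and WT at day 0, none of the 7 genes passed, against 20.4% of all tested genes. At an unadjusted p below 0.05 there were 2 of 7, against 34% of all tested genes. At day 3, 4 of 7 passed, all of them lower in KO, against 16.7% of all tested genes that were lower and 14.3% that were higher. Libraries of the genotypes did not overlap for 1 gene at day 0, Pim3, higher in KO, against 16.8% of all tested genes higher and 17.4% lower, and for 4 genes at day 3, Lifr, Il6st, Jak1 and Socs3, lower in KO, against 23% of all tested genes lower. The median log2 fold change was 0.16 at day 0 and -0.39 at day 3, beside -0.009 and -0.002 over all tested genes. These comparisons share libraries with each other and with those between the days. Calls here are from the fit with the replicate number as a block over both days. With a replicate block within each day, 3 of 7 genes passed at day 0, against 34.8% of all tested genes, as given below.

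**Figure D2:**
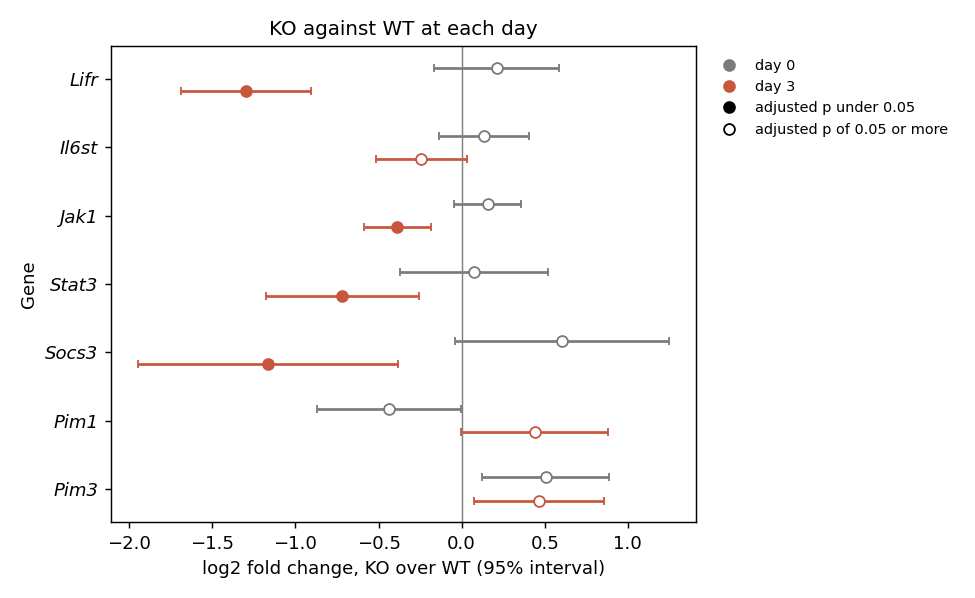
Log2 fold change of KO over WT for each gene at day 0 (grey) and day 3 (red), as points with 95% intervals from edgeR's quasi-likelihood fit, filled where the adjusted p was under 0.05. No point is filled at day 0, and Lifr, Jak1, Stat3 and Socs3 are filled at day 3, all left of 0.

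Of the receptor chains, Lifr was the one that differed between the genotypes at day 3. Lifr (ENSMUSG00000054263, GRCm38 chromosome 15, 7090614 to 7197489, plus strand) had 116, 155 and 128 CPM in WT replicates 1 to 3 at day 0 and 151, 133 and 177 CPM in KO. At day 3 it had 49.25, 57.7 and 89.7 CPM in WT and 23.85, 28.3 and 26.3 CPM in KO. At day 0 the genotypes overlapped, at day 3 every KO library lay below every WT library, and within each genotype every day 3 library lay below every day 0 library. The log2 fold change of KO over WT was 0.21 ± 0.17 at day 0 (SE, adjusted p = 0.423) and -1.30 ± 0.18 at day 3 (adjusted p = 0.000662), a level 2.46-fold lower in KO. From day 0 to day 3 Lifr fell by 1.05 ± 0.17 on the log2 scale in WT (adjusted p = 0.000626) and by 2.56 ± 0.18 in KO (adjusted p = 2.8e-06).

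The change of Lifr over the days differed between the genotypes by -1.51 ± 0.24 on the log2 scale (adjusted p = 0.00367, a test of the difference itself). This difference passed for 3 of 7 genes, Lifr, Jak1 and Socs3, all with the lower change in KO, against 15.5% of all tested genes in either direction and 7.34% with the lower change in KO. WT day 3 replicate 3, the library that stood apart, had the highest Lifr level of its group. Without it, Lifr was still lower in KO at day 3, with a log2 fold change of -1.03 (adjusted p = 0.00137), and the change over the days still differed, by -1.25 (adjusted p = 0.00401).

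Il6st (ENSMUSG00000021756, chromosome 13, 112464070 to 112510086, plus strand) encodes gp130, the chain shared by the receptors of the whole cytokine family. It had 187, 152 and 159 CPM in WT and 202, 149 and 198 CPM in KO at day 0, and 71.5, 70.2 and 94.4 CPM in WT and 65.9, 66.7 and 65.6 CPM in KO at day 3. The genotypes overlapped at day 0 and did not at day 3, when the 3 KO libraries lay close together and just below WT. Il6st fell over the days by 1.08 ± 0.12 on the log2 scale in WT (adjusted p = 7.49e-05) and by 1.46 ± 0.13 in KO (adjusted p = 8.61e-06). KO over WT gave 0.13 at day 0 (adjusted p = 0.486) and -0.24 ± 0.12 at day 3 (95% interval -0.52 to 0.03, adjusted p = 0.161), and the difference between the changes was -0.38 (adjusted p = 0.172).

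Fibroblasts also express both receptor chains, and the day 0 cells grew on fibroblast feeders. The summed level of 10 fibroblast markers was 86.7, 277 and 148 CPM in WT replicates 1 to 3 at day 0, 137, 381 and 236 CPM in KO at day 0, 52.0, 54.9 and 122 CPM in WT at day 3, and 41.3, 75.7 and 85.1 CPM in KO at day 3. Replicate 2 had the highest sum in both genotypes at day 0, where it had the lowest Il6st level in both genotypes and the highest Lifr level in WT but the lowest in KO. None of the 9 tested markers differed between the genotypes at day 0 by the adjusted p, against 20.4% of all tested genes. Their median log2 fold change was 0.65, beside -0.009 over all tested genes, and the sum was higher in KO in each replicate pair there. Lum, the marker with the fewest counts, had 0 counts in KO day 0 replicate 2. The part of feeder RNA in the receptor levels was not tested. In these bulk samples, fewer cells of a type and less RNA per cell cannot be told apart.

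Jak1 (ENSMUSG00000028530, chromosome 4, 101152367 to 101265282, minus strand), the main kinase of the receptor, had the smallest changes over the days of the 7 genes. It had 84.6, 72.9 and 76.6 CPM in WT and 92.8, 81.85 and 86.2 CPM in KO at day 0, and 78.3, 87.0 and 90.1 CPM in WT and 64.9, 66.9 and 63.7 CPM in KO at day 3. Only the KO day 3 libraries stood apart, below all other libraries. In WT the change over the days was 0.13 ± 0.09 on the log2 scale (adjusted p = 0.255), and Jak1 was the one gene of the 7 without a fall there. In KO it fell by 0.41 ± 0.09 (adjusted p = 0.00316), and the difference between the changes was -0.54 ± 0.13 (adjusted p = 0.0197). KO over WT gave 0.16 at day 0 (adjusted p = 0.261) and -0.39 ± 0.09 at day 3 (adjusted p = 0.0107), a level 1.31-fold lower in KO. Without WT day 3 replicate 3, the day 3 value was -0.30 (adjusted p = 0.0646) and the difference was -0.46 (adjusted p = 0.0583). The day 3 call was also lost without KO day 3 replicate 3, at -0.33 (adjusted p = 0.0707), and the call of the difference was lost without WT day 0 replicate 2, WT day 0 replicate 3, KO day 0 replicate 1 or KO day 3 replicate 3, with adjusted p = 0.0521, 0.0549, 0.053 and 0.0708.

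Stat3 (ENSMUSG00000004040, chromosome 11, 100885098 to 100939540, minus strand), the transcription factor itself, had overlapping levels in WT and KO ESCs and fell steeply in both genotypes. It had 174, 221 and 251 CPM in WT and 207, 216 and 245 CPM in KO at day 0, and 28.2, 57.2 and 72.6 CPM in WT and 18.0, 40.3 and 36.6 CPM in KO at day 3. The genotypes overlapped at both days, replicate 1 was the lowest library of each of the 4 groups, and all day 3 libraries lay below all day 0 libraries. The fall over the days was 2.10 ± 0.21 on the log2 scale in WT (adjusted p = 3.33e-05) and 2.90 ± 0.22 in KO (adjusted p = 3.99e-06). The difference between these changes was -0.80 ± 0.29 (adjusted p = 0.0903). At day 0 KO over WT gave 0.08 with a 95% interval of -0.37 to 0.52 (adjusted p = 0.827).

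At day 3 Stat3 was lower in KO in each of the 3 replicate pairs, with a log2 fold change of -0.72 ± 0.21 (adjusted p = 0.0256). This call rests on the pairing, and with a replicate block within each day the value was -0.72 (adjusted p = 0.000428). Without the replicate block the value was -0.74 (adjusted p = 0.114). It was also lost without WT day 3 replicate 3, at -0.50 (adjusted p = 0.13), without WT day 3 replicate 2, at -0.69 (adjusted p = 0.0734), without KO day 3 replicate 1, at -0.57 (adjusted p = 0.0934), and without KO day 3 replicate 3, at -0.66 (adjusted p = 0.106).

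**Figure D3:**
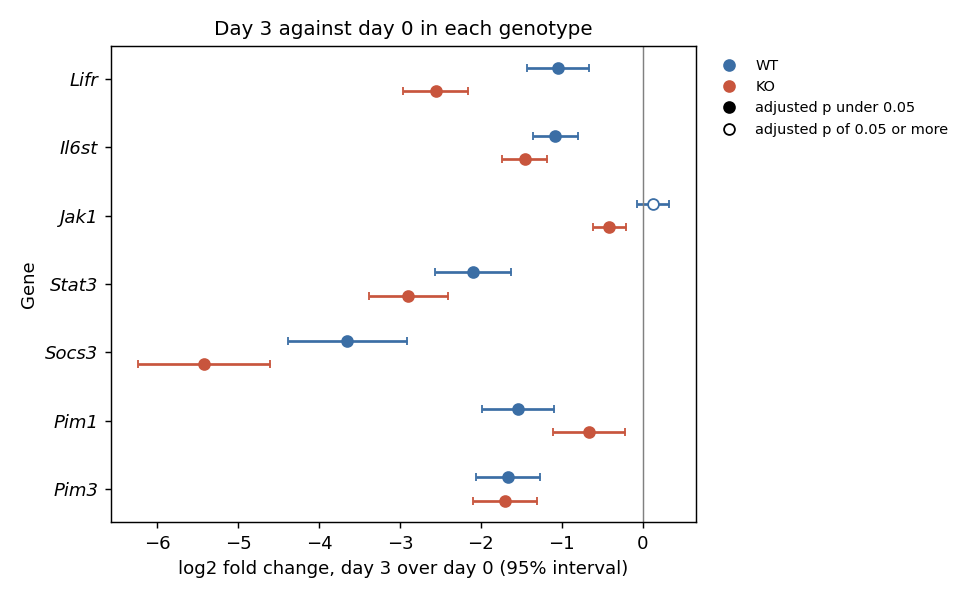
Log2 fold change of day 3 over day 0 for each gene in WT (blue) and KO (red), as points with 95% intervals from edgeR's quasi-likelihood fit, filled where the adjusted p was under 0.05. All points but that of Jak1 in WT are filled and left of 0, and Socs3 lies farthest left in both genotypes, at -3.65 and -5.42.

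Of the 3 STAT3 target genes in the set, only Socs3 had a promoter window with the spaced STAT half-sites. Such half-sites were in 8.29% of all windows searched, so the match is not particular to Socs3. The upstream parts of the windows of the 3 targets are shown to let that match be read in place, each 5′ to 3′ and ending before the first base that GENCODE annotates as exon of the gene. Pim1 has a second window inside the gene, which is not shown. Sequences are from RefSeq on GRCm38.p6, with TTCNNNGAA in capitals. Socs3 lies on the minus strand at chr11:117969452-117969616, which is intronic in a longer GENCODE transcript of the gene, Pim1 on the plus strand at chr17:29490535-29490752 and Pim3 on the plus strand at chr15:88861944-88862185.
Socs3: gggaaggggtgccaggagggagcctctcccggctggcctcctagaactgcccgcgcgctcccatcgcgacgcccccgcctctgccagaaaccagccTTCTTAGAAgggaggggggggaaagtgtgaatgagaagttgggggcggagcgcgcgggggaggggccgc
Pim1: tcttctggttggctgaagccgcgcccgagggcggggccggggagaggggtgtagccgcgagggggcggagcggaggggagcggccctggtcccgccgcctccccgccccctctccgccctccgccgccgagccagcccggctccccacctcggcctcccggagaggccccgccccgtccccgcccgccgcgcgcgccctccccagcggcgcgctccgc
Pim3: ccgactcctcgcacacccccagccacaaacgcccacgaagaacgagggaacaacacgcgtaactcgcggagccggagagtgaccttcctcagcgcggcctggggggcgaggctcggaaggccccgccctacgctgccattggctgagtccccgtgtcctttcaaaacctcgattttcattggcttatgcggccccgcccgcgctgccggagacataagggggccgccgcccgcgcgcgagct

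The search covered windows from 250 bases before to 50 bases after each RefSeq start. TTCNNNGAA, which reads the same on both strands, was in 1 of the 9 windows of the 7 genes, and in 8.29% of all 32817 windows. The match in Socs3, TTCTTAGAA, begins at position -154 from the start and covers 117969512 to 117969520 of chromosome 11. The stricter TTCCNGGAA, which is contained in the first pattern, was in none of the 9 windows and in 1.15% of all. A match is a string of letters and not a site shown to be bound.

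Socs3 (ENSMUSG00000053113, chromosome 11, 117966079 to 117970047, minus strand) had the steepest fall of the 7 genes. It had 152, 92.6 and 90.5 CPM in WT and 285, 122.7 and 118 CPM in KO at day 0, and 8.86, 9.10 and 7.91 CPM in WT and 2.45, 4.04 and 4.70 CPM in KO at day 3. The day 3 values rest on 166 to 190 reads per WT library and 49 to 113 reads per KO library. At day 0 replicate 1 was far above the other replicates in both genotypes and the groups overlapped, while at day 3 all KO libraries lay below all WT libraries. Over the days Socs3 fell by 3.65 ± 0.33 on the log2 scale in WT, 12.6-fold (adjusted p = 1.96e-05), and by 5.42 ± 0.37 in KO, 42.9-fold (adjusted p = 2.23e-06).

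The fall of Socs3 was larger in KO than in WT by 1.77 ± 0.46 on the log2 scale (difference -1.77, adjusted p = 0.0275). At day 0 KO over WT was 0.61 ± 0.29 (95% interval -0.04 to 1.25, adjusted p = 0.173), higher in each of the 3 replicate pairs. At day 3 it was -1.17 ± 0.35 (adjusted p = 0.0303), a level 2.25-fold lower in KO and lower in each of the 3 pairs. The day 3 call was lost without WT day 3 replicate 3, at -1.10 (adjusted p = 0.085), without WT day 3 replicate 2, at -1.01 (adjusted p = 0.0952), without KO day 3 replicate 1, at -0.74 (adjusted p = 0.0758), and without KO day 3 replicate 2, at -1.30 (adjusted p = 0.0591). The call of the difference was lost without WT day 3 replicate 3, at -1.71 (adjusted p = 0.0585), and without WT day 0 replicate 2, WT day 0 replicate 3, WT day 3 replicate 2 or KO day 3 replicate 2, with adjusted p = 0.0636, 0.0637, 0.0593 and 0.0513.

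Pim1 (ENSMUSG00000024014, chromosome 17, 29490753 to 29496112, plus strand) encodes a serine/threonine kinase that favours survival and growth. It had 126, 88.1 and 76.5 CPM in WT and 101, 60.6 and 54.8 CPM in KO at day 0, and 38.7, 37.1 and 23.9 CPM in WT and 38.4, 47.9 and 44.2 CPM in KO at day 3. The genotypes overlapped at both days, KO lay below WT in all 3 pairs at day 0, and the day 3 libraries lay below the day 0 libraries in both genotypes. Pim1 fell over the days by 1.54 ± 0.20 on the log2 scale in WT (adjusted p = 0.000161) and by 0.66 ± 0.20 in KO (adjusted p = 0.0161), and the difference between these changes was 0.88 ± 0.28 (adjusted p = 0.0598). KO over WT gave -0.44 ± 0.20 at day 0 (adjusted p = 0.145) and 0.44 ± 0.20 at day 3 (adjusted p = 0.12).

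Pim3 (ENSMUSG00000035828, chromosome 15, 88862186 to 88865726, plus strand), a close relative of Pim1, was the one gene with higher values in KO in every replicate pair at both days. It had 134, 119 and 102 CPM in WT and 189.6, 179.7 and 137 CPM in KO at day 0, and 29.2, 47.4 and 36.8 CPM in WT and 42.5, 58.7 and 54.3 CPM in KO at day 3. At day 0 all KO libraries lay above all WT libraries, and at day 3 the groups overlapped. KO over WT gave 0.51 ± 0.17 at day 0 (95% interval 0.12 to 0.89, adjusted p = 0.0637) and 0.46 ± 0.18 at day 3 (95% interval 0.08 to 0.85, adjusted p = 0.0683). Pim3 fell over the days by 1.66 ± 0.18 on the log2 scale in WT (adjusted p = 5.11e-05) and by 1.70 ± 0.18 in KO (adjusted p = 2.93e-05), with a difference of -0.04 (95% interval -0.59 to 0.50, adjusted p = 0.936).

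Whether the day 0 differences of the targets pass depends on how the replicate numbers are used. Same-numbered WT and KO libraries deviated together within a day but not across days, and in the fit with a replicate block within each day 3 of 7 genes passed at day 0, against 34.8% of all tested genes: Socs3 at 0.57 (adjusted p = 0.0111), Pim1 at -0.45 (adjusted p = 0.0269) and Pim3 at 0.51 (adjusted p = 0.000525). At day 3, 6 of 7 passed in that fit, against 46.9% of all tested genes, with Pim1 at 0.41 (adjusted p = 0.0341) and Pim3 at 0.47 (adjusted p = 0.000711) beside the 4 genes named above. Those 4 were Lifr at -1.29 (adjusted p = 0.000306), Jak1 at -0.38 (adjusted p = 0.00109), Stat3 at -0.72 (adjusted p = 0.000428) and Socs3 at -1.21 (adjusted p = 0.00124). The difference between the changes passed for 5 of 7, against 31.2%, with Stat3 at -0.78 (adjusted p = 0.00272) and Pim1 at 0.86 (adjusted p = 0.00904) added. Lifr, Jak1 and Socs3 had adjusted p = 0.00139, 0.00212 and 0.000874 for that difference. Without WT day 3 replicate 3, by contrast, Lifr alone passed at day 3, 1 of 7 genes against 22.1% of all tested genes, and Lifr alone passed for the difference, against 12.5%.

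Day 0 replicate 1 shared a pattern across the set. Il6st, Jak1, Socs3, Pim1 and Pim3 had their highest day 0 level in replicate 1 in both genotypes, which was so for 25.3% of all tested genes, and Stat3 had its lowest there in both. This pattern was chosen after its values were seen and has no test.

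The rest of the pathway was read from 59 listed genes, of which 55 were tested. At day 0, 10 were higher and 3 lower in KO, against 9.56% and 10.9% of all tested genes, and at day 3, 9 were higher and 10 lower, against 14.3% and 16.7%. Over the days 12 rose and 23 fell in WT, against 30.7% and 25.5% of all tested genes, and 9 rose and 27 fell in KO, against 29.4% and 27.2%. The change over the days differed for 13 of the 55, against 15.5% of all tested genes. Their median log2 fold change of KO over WT was 0.14 at day 0 and -0.07 at day 3.

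**Figure D4:**
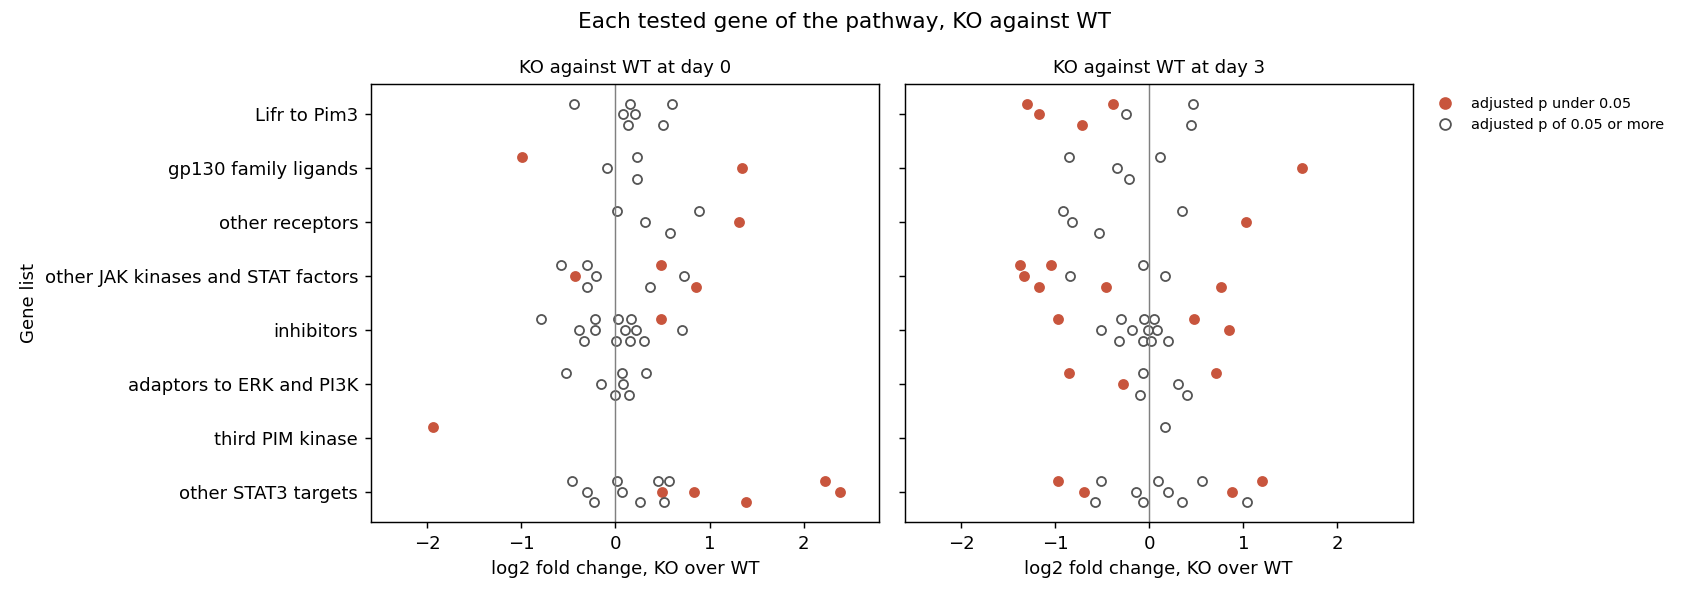
Log2 fold change of KO over WT at day 0 (left) and day 3 (right), with a point for each tested gene in the 7 genes from Lifr to Pim3 and in 7 further lists of the pathway, filled red where the adjusted p was under 0.05. Pramel7 at day 3 is left out because WT had no counts. The filled points of the other STAT3 targets lie right of 0 at day 0, and 5 of the 6 filled points of the other JAK kinases and STAT factors lie left of 0 at day 3.

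The cytokines that signal through gp130 were low in these cells. Of 8 listed, 5 were tested, and 1 was higher and 1 lower in KO at day 0, against 9.56% and 10.9% of all tested genes. Lif itself was at 7.30 ± 1.00 CPM in WT ESCs and fell over the days by 0.66 in WT (adjusted p = 0.00888) and by 0.79 in KO (adjusted p = 0.00339). Osm, encoding oncostatin M, was at 3.02 CPM in KO and 1.13 CPM in WT ESCs (log2 fold change 1.35, adjusted p = 0.0384). No ligand passed at day 0 without WT day 0 replicate 2 or 3 or KO day 0 replicate 2 or 3, and Osm did not pass without KO day 0 replicate 1 or without the replicate block. At day 3 Clcf1, a ligand of the CNTF receptor, was the 1 that differed, at 15.6 CPM in KO against 5.12 CPM in WT (1.62, adjusted p = 0.000463). Of the 5 other receptors, Cntfr was higher in KO at day 0 (1.31, adjusted p = 0.0176) and at day 3 (1.03, adjusted p = 0.0338), and the 4 others did not pass in either. Over all tested genes, 9.56% were higher and 10.9% lower in KO at day 0, and 14.3% and 16.7% at day 3. The day 3 call of the receptors was lost without the replicate block, and with WT day 3 replicate 2 or 3 or KO day 3 replicate 1 or 3 left out. The day 0 call was lost without WT day 0 replicate 1 or 2 or KO day 0 replicate 2 or 3.

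Of the 9 other JAK kinases and STAT factors, 5 were lower and 1 was higher in KO at day 3, against 16.7% and 14.3% of all tested genes. Their median log2 fold change was -0.85, beside -0.002 over all tested genes. Jak2, a kinase of many cytokine receptors, was at 13.3 ± 2.5 CPM in KO and 27.4 ± 1.9 CPM in WT (-1.05, adjusted p = 0.00384). Stat5a was lower too (-1.33, adjusted p = 0.0115), but Stat5a and Stat5b are near-identical neighbours, so that reads could be split or lost between them. At day 0, 2 of the 9 were higher and 1 was lower, against 9.56% and 10.9% of all tested genes. Stat6 was at 39.4 CPM in KO against 21.6 CPM in WT (0.86, adjusted p = 0.00235). The day 0 count of 3 was 1 without WT day 0 replicate 3, KO day 0 replicate 2 or KO day 0 replicate 3. It was 5 with the replicate block within each day and 6 with the 6 samples alone. The number passing at day 3 was 6, but 3 without WT day 3 replicate 3 and 2 without KO day 3 replicate 3.

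Of 14 tested inhibitors, 1 was higher in KO at day 0, and at day 3 Pias3 and Pias2, of the PIAS family that restrains STATs, were higher (0.85, adjusted p = 0.00209, and 0.48, adjusted p = 0.00315), while Socs5 was lower (-0.97, adjusted p = 0.00395). Over all tested genes, 9.56% were higher and 10.9% lower in KO at day 0, and 14.3% and 16.7% at day 3. The number of inhibitors passing at day 3 ranged from 0 to 6 across settings. Without WT day 3 replicate 3 it was 3 of 14, as in the main fit. Of 7 adaptors that link the receptor to ERK and PI3K, none passed at day 0, against 20.4% of all tested genes. Their log2 fold changes there ran from -0.52 to 0.33. At day 3, 1 adaptor was higher and 2 were lower in KO, against 14.3% and 16.7% of all tested genes. Gab1, a docking protein, fell over the days from 518 to 102 CPM in WT (-2.34, adjusted p = 1.8e-06) and from 512 to 167 CPM in KO (-1.62, adjusted p = 5.86e-06), and it was higher in KO at day 3 (0.71, adjusted p = 0.0029).

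Of the 14 other STAT3 targets, 5 were higher and none lower in KO ESCs and 9 did not pass, against 9.56% of all tested genes higher and 10.9% lower, and their median log2 fold change was 0.47 beside -0.009 over all tested genes. Klf5, a pluripotency factor, was at 793 ± 39.1 CPM in KO and 169 ± 8.37 CPM in WT (2.23, adjusted p = 0.000103). Bcl3, a cofactor of NF-κB, was at 63.9 ± 10.6 CPM against 24.5 ± 3.53 CPM (1.38, adjusted p = 0.000791). Pramel7 was at 10.02 ± 1.38 CPM against 1.92 ± 0.47 CPM (2.39, adjusted p = 0.00122), with the limit that its gene family holds near-identical copies. The number passing at day 0 ranged from 3 to 7 over all settings and by less than 1.5 times when a library was left out.

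These targets fell with the 7 genes over the days, with 10 of 14 lower and 1 higher in WT and 11 of 14 lower and 2 higher in KO, and medians of -2.35 and -2.79. Over all tested genes, 25.5% fell and 30.7% rose in WT, and 27.2% fell and 29.4% rose in KO. Tfcp2l1, a factor that sustains self-renewal, went from 462 to 29.1 CPM in WT (-4.00, adjusted p = 1.29e-07) and from 837 to 18.2 CPM in KO (-5.54, adjusted p = 3.49e-08), and its changes differed by -1.54 (adjusted p = 0.00129). At day 3, 3 of the 14 were higher and 2 lower in KO, against 14.3% and 16.7% of all tested genes. Mcl1, a survival factor, and Klf5 were higher (0.88, adjusted p = 0.00104, and 1.20, adjusted p = 0.00133), whereas Tfcp2l1 was lower (-0.70, adjusted p = 0.00488). The third of those higher was Pramel7, which had no counts in the WT day 3 libraries and 9 in the KO ones. The count at day 3 was 10 with the replicate block within each day and 4 without WT day 3 replicate 3.

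Genes with the most similar course were found from the root mean square difference between centred mean log2 CPM over the 4 groups, among 12144 genes. Socs3, with the widest range, had the most distant nearest genes, Tfcp2l1 at 0.24 and S100a6 at 0.24. For Stat3 the nearest were Trps1 at 0.10 and Jak3 at 0.12, for Lifr Col5a1 and Nab2, both at 0.11, and for Il6st Axl at 0.04. For Jak1 the nearest was Borcs5 at 0.02, for Pim1 Atp8b5 at 0.06 and for Pim3 Bicral at 0.03. Each likeness is over 4 groups that share the libraries and is a description.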

How the data were processed

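Polyadenylated RNA of 12 samples was read by single-end sequencing. The authors used Cutadapt 1.3 for trimming, STAR 2.4.2a for alignment to GRCm38 and HTSeq 0.6.1 for counting reads per gene, per the submitters' processing notes and the methods of the study, and the deposited values are these raw counts. The strand setting of the counting is not given in the sources used here. Reads with several alignments, 36.5% to 44.1% of those recorded, 6.14% to 9.32% on no gene and 0.705% to 0.75% on several genes stayed outside the gene counts, which lowers the values of genes that have near-identical copies.

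Genes above 1 CPM in at least 1 sample were tested in R 4.3.3 with the quasi-likelihood test of edgeR 4.0.16 and TMM factors. All 12 samples were in 1 fit, with 4 groups and the replicate number as a block over both days. The methods of the study add a batch factor but do not say that it is the replicate number. Same-numbered libraries deviated together only within a day, as given below. P-values were two-sided and adjusted by Benjamini-Hochberg over all tested genes. Standard errors were derived from the log2 fold change and the F statistic. The script was tested on simulated data with known changes in the KO day 0 group only and no replicate effect. That test did not cover the replicate block or the day 3 comparisons.

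Replicate numbers come from the sample titles. Deviations of same-numbered WT and KO libraries from their group means correlated within a day (r = 0.318 to 0.677 over 6 pairs and 12659 genes), so the numbers were taken to pair them, and did not across days (r = -0.208 to 0.0585). Replicates of a group differed by more than sampling noise, with a chi-square per gene of 11.9 to 55.8.

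Alternatives were the fit without the block, a block within each day, limma-voom (limma 3.58.1), DESeq2 1.42.0, RLE normalization, a minimum of 10 counts in each library, no filter, the 6 samples compared alone, a log2 fold change above 1, and each library left out. Positions, exon lengths and names are from GENCODE M21, which held 46005 of the 46517 identifiers, and sequences from the RefSeq promoter table of GRCm38.p6, which held windows for all 7 genes. The genes and lists were chosen with earlier results of these data known. Genes named from a list are the up to 3 with the smallest adjusted p under 0.05 in a comparison, or the few that make up a small count, named after their values were seen. One result that this rule would name is not reported here. Figures were drawn with matplotlib 3.10.9.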

Additional observations from a re-analysis of the deposited data

Results flagged for a closer look

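The change from day 0 to day 3 differed between KO and WT, by a test of the difference itself, for Lifr (-1.51 on the log2 scale), Jak1 (-0.54) and Socs3 (-1.77) (KO change minus WT change). Lifr and Socs3 fell in both genotypes, whereas Jak1 fell in KO and its WT change of 0.13 did not pass. WT day 3 replicate 3 has the highest Lifr and Jak1 levels and the lowest Socs3 level of its group, and without it the values are -1.25, -0.46 and -1.71, of which that of Lifr passes the adjusted p of 0.05. At day 3 the mesendoderm marker sum differs between the genotypes as well, at 691 to 1448 CPM in WT and 76.1 to 152 CPM in KO, and its part in these differences was not tested.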

How the results depend on the processing

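Of 714 values of the 35 gene results under alternative settings, 650 kept their direction and their side of the threshold, 28 lost the call, 29 gained it and 7 changed sign. The values above the log2 fold change of 1 are those of the main fit with that cut added, so they could not change sign or gain a call. Libraries were also left out for comparisons that did not hold their group, so the 650 overstate how far the results were tried. For KO against WT at day 0, where none of the 7 genes passed in the main fit, 3 passed with the replicate block within each day, 3 with the 6 samples alone, and 1 each with limma-voom, DESeq2 or no filter (0 to 1 when a library was left out). At day 3, 2 passed with a log2 fold change above 1 (1 to 5 when a library was left out, against 4). The difference between the changes passed for 5 genes with the block within each day, with DESeq2 and with no filter (1 to 4 when a library was left out, against 3). Over all tested genes, the 3201 calls at day 0 became 5447 with the block within each day, 5356 with the 6 samples alone and 1398 above the log2 fold change of 1 (1717 to 3480 when a library was left out). The 4846 calls at day 3 became 7347 and 2065 (2907 to 5079), the 2436 of the difference 4889 and 1494 (1391 to 2397), and above the log2 fold change of 1 the 8812 and 8864 calls between days in WT and KO became 4304 and 4535. The drops above the log2 fold change of 1 follow from the added cut on the same fit. The cause of the other shifts was not tested. The fit with no replicate block ended the call of Stat3 at day 3 (adjusted p = 0.114). The 7 sign changes are of values near 0. For Stat3 at day 0 the value ran from -0.20 without KO day 0 replicate 1 to 0.21 without KO day 0 replicate 2, and for the Pim3 difference it was 0.05, 0.02, 0.09, 0.05, 0.13 and 0.09 without WT day 0 replicate 2 or 3, WT day 3 replicate 2 or 3, KO day 0 replicate 1 or KO day 3 replicate 1, and as low as -0.21 without WT day 0 replicate 1. Lifr kept its call at day 3 and for the difference in every setting, and 6 genes fell in WT in every setting. With 3 samples per group and no label for separate cultures or clones, differences among clones cannot be told from the deletion, and genes under 1 CPM rest on few reads.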

Other observations

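Pim2, the third PIM kinase, took another course than Pim1 and Pim3. It rose over the days, from 132 ± 71.9 to 578 ± 208 CPM in WT (2.21 on the log2 scale, adjusted p = 0.00174) and from 34.1 ± 14.3 to 661 ± 36.3 CPM in KO (4.32, adjusted p = 3.68e-05), while the other two PIM genes fell. In ESCs KO was lower (log2 fold change -1.94, adjusted p = 0.011), at 17.9 to 44.7 CPM against 79.5 to 213.9 CPM in WT. At day 3 KO over WT was 0.16 (adjusted p = 0.789), and the changes over the days differed by 2.11 (adjusted p = 0.0373).

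Of the 9 tested fibroblast markers, 3 were higher and 3 lower in KO at day 3, against 14.3% and 16.7% of all tested genes. Dcn, encoding the matrix proteoglycan decorin, was higher (2.51, adjusted p = 0.00224), whereas Fbn1, encoding fibrillin, was lower (-2.03, adjusted p = 0.00354). Fbn1 was at 5.20 to 9.66 CPM in KO and 15.95 to 60.6 CPM in WT at day 3. The highest of these is from WT day 3 replicate 3, since the fibroblast sums of WT replicates 1 and 2 were 52.0 and 54.9 CPM. No value of Fbn1 without that library is given here. Of the 6 mesendoderm markers, all 6 were lower in KO at day 3, against 16.7% of all tested genes. Of 4 neuroectoderm markers, 3 were higher in KO at day 3, against 14.3%.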
